A study of Mus musculus with 32 samples.

Results

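Kinesins are motor proteins that walk along or take apart microtubules, and centromere proteins build the kinetochore, the platform on each chromosome that microtubules hold. Both families were taken here as all measured mouse genes whose symbol is Kif followed by a number or Cenp followed by a letter. That gave 58 genes, 37 of them Kif and 21 Cenp, of 18193 genes on the array. The rule reads symbols only, but was set with earlier results of these data known. The study measured gene expression in the liver of CD-1 mice on Affymetrix Mouse Genome 430 2.0 arrays. The adult groups are unoperated 10-week-old females (time 0) and livers from which 2/3 had been removed 1 h, 2 h, 6 h, 12 h or 18 h earlier and, past the first day, 24 h, 30 h, 48 h or 72 h earlier. The embryonic groups are livers of 6 stages, one for each day between 10.5 and 14.5 days after conception and one of 16.5 days. There are 2 arrays in each of the 16 groups, the RNA on an array was pooled from 3 or more tissues, and there was no sham-operated group, so the operation and the loss of tissue cannot be told apart. In the labels of the embryonic samples the age and description fields conflict with the stage, which was therefore taken from the source name.

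The kinesin superfamily divides by work. Mitotic kinesins separate the spindle poles, align chromosomes, and organise the midzone and the cut between daughter cells, and their messenger RNAs are made mostly late in the cell cycle. Transport kinesins carry organelles and vesicles in cells that may never divide. Of the centromere proteins, Cenpa replaces histone H3 at the centromere, a constitutive network of inner kinetochore proteins assembles on it, and outer proteins such as Cenpe reach the microtubule. Adult hepatocytes rarely divide, but re-enter the cell cycle after part of the liver is removed, and the embryonic liver grows fast while it is the main site of blood formation. The 58 genes were grouped as 11 mitotic kinesins, 3 kinesins of spindle pole or centriole, 15 transport kinesins, 8 kinesins of the cilium or other roles, 17 genes of the centromere and inner kinetochore, 2 of the outer kinetochore, and, apart from these, Cenpj, a centriole protein, and Cenpv.

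Values are probe set signals on a linear scale as the authors deposited them. Array medians ran from 69.7 to 79.5, and between 2.54% and 4.02% of an array's signals were negative. Changes and standard errors (SE) are differences of log2(signal + 16), which understate the change of low signals. For a gene near 0 in a group the size of the change depends on the added 16. All 58 genes were tested in the fit of all genes. A gene was called raised or lowered at a Benjamini-Hochberg adjusted limma p under 0.05 over all 18193 genes. Because the arrays of a group are separate pools, a p-value speaks of differences among pools only, with a spread estimated for each gene over all 16 groups. Of the marker genes, the summed signal of 10 hepatocyte genes was 42683 to 77332 on the arrays of 0 to 30 h and 5157 to 25926 on the embryonic arrays. That of 8 erythroid genes was 736 to 1196 and 2913 to 27870. In bulk tissue, fewer cells of a type and less RNA per cell cannot be told apart.

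Promoters are shown first, because mitotic kinesins share letters that transport kinesins seldom carry. RefSeq windows of 300 bases (250 before the start to 49 after it, build GRCm38.p6) matched 52 of the 58 genes, with 59 windows in all. The motifs searched, on both strands, were these. The first is the cell cycle genes homology region (CHR, as TTTGAA or TTCGAA), a binding site of the complexes that time late cell cycle transcription. The second is the CCAAT box (CCAAT). The third is an E2F site (TTTCCCGC, TTTCGCGC or TTTGGCGC). Parts of 6 promoters follow, 5′ to 3′ on the strand of the gene, from 100 bases before the start to 25 after it, with CHR and CCAAT letters of either strand in capitals. The first 5 are genes of cell division, namely Kif11 (chr19:37376282-37376407, + strand), Kif23 (chr9:61946774-61946899, - strand), Kif4 (chrX:100625965-100626090, + strand), Cenpa (chr5:30666786-30666911, + strand) and Cenpf (chr1:189688061-189688186, - strand). The sixth is a transport kinesin shown for contrast, Kif21a (chr15:91049926-91050051, - strand).
Kif11: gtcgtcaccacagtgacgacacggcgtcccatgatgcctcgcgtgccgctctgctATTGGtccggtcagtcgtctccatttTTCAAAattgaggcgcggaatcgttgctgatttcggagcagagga
Kif23: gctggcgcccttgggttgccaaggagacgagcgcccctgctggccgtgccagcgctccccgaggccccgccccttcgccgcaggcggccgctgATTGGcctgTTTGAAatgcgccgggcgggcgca
Kif4: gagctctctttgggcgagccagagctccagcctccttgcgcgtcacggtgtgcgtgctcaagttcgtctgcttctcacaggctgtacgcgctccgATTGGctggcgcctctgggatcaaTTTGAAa
Cenpa: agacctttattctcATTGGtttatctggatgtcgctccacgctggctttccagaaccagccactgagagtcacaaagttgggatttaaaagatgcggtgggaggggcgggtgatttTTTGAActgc
Cenpf: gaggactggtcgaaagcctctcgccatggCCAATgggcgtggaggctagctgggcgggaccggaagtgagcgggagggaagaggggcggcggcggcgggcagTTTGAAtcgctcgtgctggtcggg
Kif21a: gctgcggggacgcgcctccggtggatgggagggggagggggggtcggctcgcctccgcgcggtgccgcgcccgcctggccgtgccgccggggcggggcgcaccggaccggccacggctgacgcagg

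In these stretches Kif11, Kif23, Kif4, Cenpa and Cenpf each have 1 CHR match and 1 CCAAT match, and Kif21a has 0 of each. The CHR match of Kif23 and Cenpf lies 2 bases after the annotated start, and that of Kif11 begins 19 bases before it (offset -19). Over whole windows, a CHR match was found in 9 of the 10 mitotic kinesins in the table (90%), in 5 of 20 windows of inner kinetochore genes (25%), in 1 of 13 of transport kinesins (7.69%) and in 19.2% of all 32851 promoter windows. Kif18a was the mitotic kinesin without one. A CCAAT box was found in 15 of 20 windows of inner kinetochore genes (75%), in 6 of 10 of mitotic kinesins (60%), in 4 of 13 of transport kinesins (30.8%) and in 37.4% of all windows. Both motifs were in 6 of 10 windows of mitotic kinesins, in 5 of 20 of the inner kinetochore (25%), in 0 of 13 of transport kinesins and in 7.52% of all. An E2F form was in 6 of the 59 windows (10.2%) and in 1.84% of all. The stretches shown are examples and do not stand for their groups, and the window of Cenpe has no CHR match. By calls against time 0, 5 of 16 windows of genes raised at 72 h and in the embryo had a CHR match (31.2%). Of genes raised in the embryo but not at 72 h, 7 of 17 windows had one (41.2%). Of genes lowered in the embryo 3 of 11 did (27.3%), and of those not called there 4 of 15 (26.7%). These are matches of letters, not measured binding.

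At 72 h after hepatectomy, 15 of the 58 genes were raised against time 0 and 0 were lowered, where 2.83% of all genes were raised and 0.319% lowered. They are 10 of 17 inner kinetochore genes, 4 of 11 mitotic kinesins and Cenpe, while 0 of 15 transport kinesins, 0 of 8 kinesins of the cilium or other roles and 0 of 3 of the spindle pole or centriole were called. Against the mean of 24 and 30 h, the same 15 and Cenpn were raised and 0 lowered, with 2.85% and 0.115% of all genes. That mean shares no array with time 0, but both comparisons use the same arrays of 72 h. The median change at 72 h against time 0 was 0.89 in the inner kinetochore, 0.37 in mitotic kinesins, 0.07 in transport kinesins and 0.04 over all genes. For 18 genes both arrays of 72 h lay above all 16 arrays of 0 to 30 h (3.82% of all genes), and for 0 both lay below (0.544%).

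**Figure D1:**
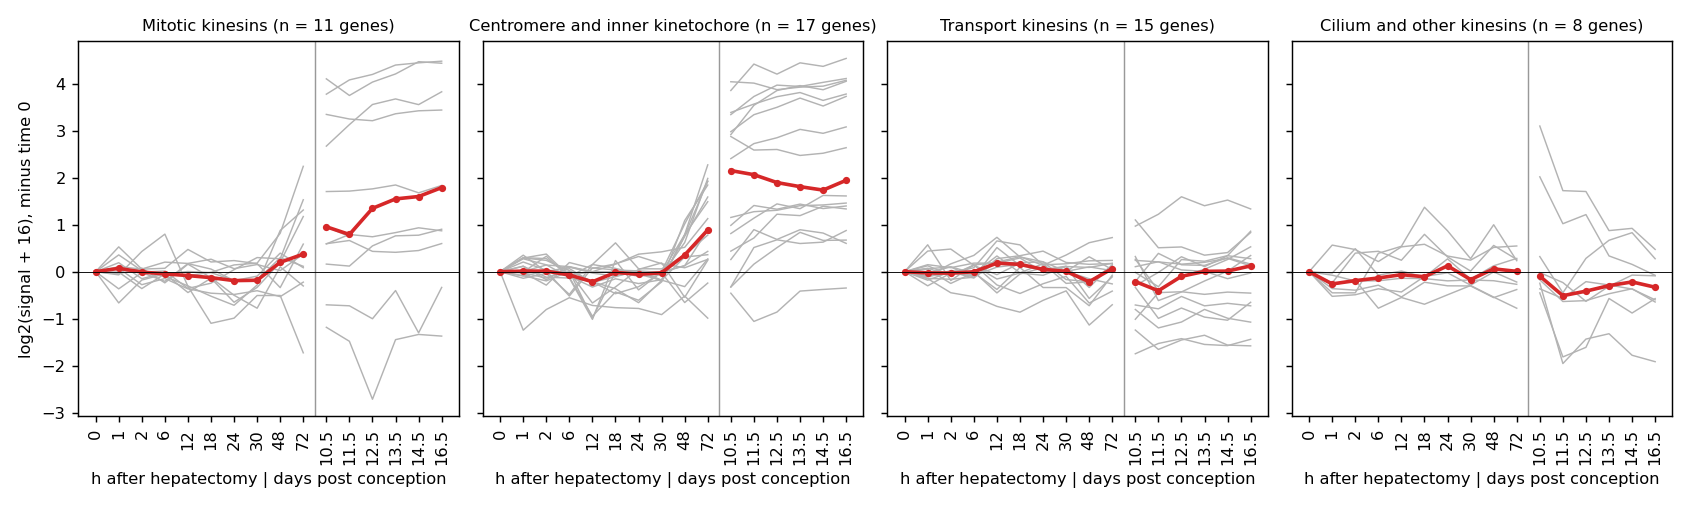
Change of each gene from time 0 in log2(signal + 16) (grey lines) and the median of its group (red), by hours after hepatectomy and, right of the line, days post conception. The median of the 17 inner kinetochore genes reached 0.89 at 72 h, that of the 15 transport kinesins 0.07.

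Among the mitotic kinesins, Kif20a carries the chromosomal passenger complex to the spindle midzone. Its signal was 24.96 and 17.9 on the 2 arrays of time 0, from 13.9 to 31.7 (median 22.4) on the 16 arrays of 0 to 30 h, 25.9 and 87.1 on those of 48 h, then 156 and 164.8 for 72 h. Both arrays of 72 h stood above every earlier array, and the rise was 2.24 ± 0.26 (SE, 2 arrays a group, limma adjusted p 2.87e-05). Kif11 is the motor that pushes the spindle poles apart. Its signal was 7.94 and 10.8 at time 0, from 1.88 to 18.2 up to 30 h, 2.57 and 34.5 on the arrays of 48 h, then 55.5 and 58.8 for 72 h. It was higher at 72 h by 1.53 ± 0.29 (limma adjusted p 0.00317), with no overlap between 72 h and the arrays of 0 to 30 h. Kif18a dampens the movements of chromosomes at the metaphase plate. It went from 11.9 and 21.4 at time 0 to 59.5 and 54.4 at 72 h, a rise of 1.17 ± 0.24 (limma adjusted p 0.00715). Kif23 is the motor of the centralspindlin complex, which bundles the midzone and places the cleavage furrow. Its signal of 8.36 and 12.3 at time 0 became 69.8 and 33.6 at 72 h, which differ from each other more than those of the other 3, with a rise of 1.31 ± 0.31 (limma adjusted p 0.0185). The calls of Kif18a and Kif23 were lost on leaving out single arrays: Kif18a without the first of time 0 or either of 72 h, Kif23 without either of time 0 or the first of 72 h.

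The other 7 mitotic kinesins were not called at 72 h on the probe set of highest mean. Kif22, a chromokinesin, had 343 and 914 at time 0 and 667 and 1087 at 72 h (0.59 ± 0.32), and the arrays of the groups overlapped. Kif4, a chromokinesin that also works at the midzone, changed by 0.11 ± 0.26, Kif2c, a microtubule depolymerase at the centromere, by 0.37 ± 0.16, and Kif20b by 0.08 ± 0.29. For Kif15, which backs up Kif11, the difference was -0.30 ± 0.33, for Kif18b -0.22 ± 0.18 and for Kif14, a kinesin of cytokinesis, -1.73 ± 0.68. The large error of Kif14 goes with signals that ran from -34.5 to 96.4 on the 20 adult arrays.

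Of the inner kinetochore, 10 genes were raised at 72 h. Cenpa, the histone variant that marks the centromere, had 39.9 and 42.1 at time 0, from 6.75 to 83.5 (median 30.5) up to 30 h, 48.9 and 134 on the arrays of 48 h, then 246 and 274 for 72 h. The rise at 72 h was 2.27 ± 0.34 (limma adjusted p 0.000255). Cenph, Cenpi and Cenpk belong to 1 subcomplex that helps bring new Cenpa to the centromere. Cenph was at -0.905 and 1.61 at time 0 and 54.5 and 46.6 at 72 h, and Cenpi at -2.24 and -10.1 and then 34.9 and 56.3. On no array of 0 to 30 h did Cenph pass 7.03 or Cenpi 10.0, so both were near 0 until 30 h, and their changes of 1.98 ± 0.26 and 1.92 ± 0.35 rest on the added 16. Cenpk went from 31.4 and 22.7 to 103 and 105.4 (1.49 ± 0.34, limma adjusted p 0.0169), a call lost without any 1 of these 4 arrays. Cenpm, which joins the same subcomplex, rose from 104.9 and 101 to 203 and 293 (1.13 ± 0.17, limma adjusted p 0.000255).

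Cenpp and Cenpq belong to a further subcomplex of the inner kinetochore. Cenpq rose from 45.7 and 35.5 to 181 and 217, and its highest earlier array up to 30 h was 60.6 (1.93 ± 0.27, limma adjusted p 0.000163). Cenpp was at 6.49 and 2.89 at time 0 and at 56.5 and 59.6 at 72 h (1.84 ± 0.29, limma adjusted p 0.000466). Of the same subcomplex, Cenpu was at 101 and 89.4 and then 108 and 129 (0.27 ± 0.27) and Cenpo changed by -0.99 ± 0.37, neither of them called. The arrays of Cenpo were at 732 and 283 at time 0, which differ much, and at 242 and 204 at 72 h. Its other probe sets changed by -0.10 to 0.42. Cenpt and Cenpw pair through histone folds and reach out to the Ndc80 complex. Cenpw rose from 29.9 and 28.1 to 121 and 118 (1.59 ± 0.27, limma adjusted p 0.00118). Cenpt rose from 20.5 and 27.1 to 60.1 and 54.9 (0.89 ± 0.18, limma adjusted p 0.00618), and lost the call without the first array of either group. Their partners Cenps and Cenpx, which also act in DNA repair, changed by 0.26 ± 0.14 and 0.24 ± 0.34 and were not called. Cenpc1, which reads the Cenpa nucleosome, went from 61.7 and 57.5 to 114 on both arrays (0.78 ± 0.16, limma adjusted p 0.00534). Its call was lost without the second array of time 0 or either array of 72 h. Cenpb, which binds a box in satellite DNA, changed by -0.24 ± 0.41, and Cenpl by 0.43 ± 0.14, neither called.

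Of the outer kinetochore, Cenpe is itself a kinesin that tethers and moves chromosomes along microtubules. Its signal lay between -11.3 and 9.34 on the 16 arrays of 0 to 30 h, at 4.22 and 60.8 on those of 48 h, and at 58.4 and 53.5 on those of 72 h. The difference at 72 h was 2.17 ± 0.34 (limma adjusted p 0.000466). Cenpf, a large coiled-coil protein of the outer kinetochore, was at 505 and 503 at time 0 and 566 and 574 at 72 h on the probe set of highest mean (0.17 ± 0.40), and another of its probe sets gave a different course, described with the probe sets. The 15 calls at 72 h held on leaving out any 1 array of time 0 or 72 h for 9 genes (Cenpa, Cenpe, Cenph, Cenpm, Cenpp, Cenpq, Cenpw, Kif11 and Kif20a). In a fit of the compared arrays alone 5 of the 15 were called, namely Cenpa, Cenpe, Cenph, Cenpp and Kif20a. On the same arrays the sum of 7 macrophage genes was 5097 to 6065 at 72 h and 2604 to 3888 from 0 to 30 h (3 of 7 raised at 72 h against time 0). That of 11 genes of blood progenitors and neutrophils was 2384 to 2515 and 944 to 2247 (3 of 11 raised), and the erythroid sum 649 to 690 and 736 to 1196. The part of these cells in the changes was not tested.

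**Figure D2:**
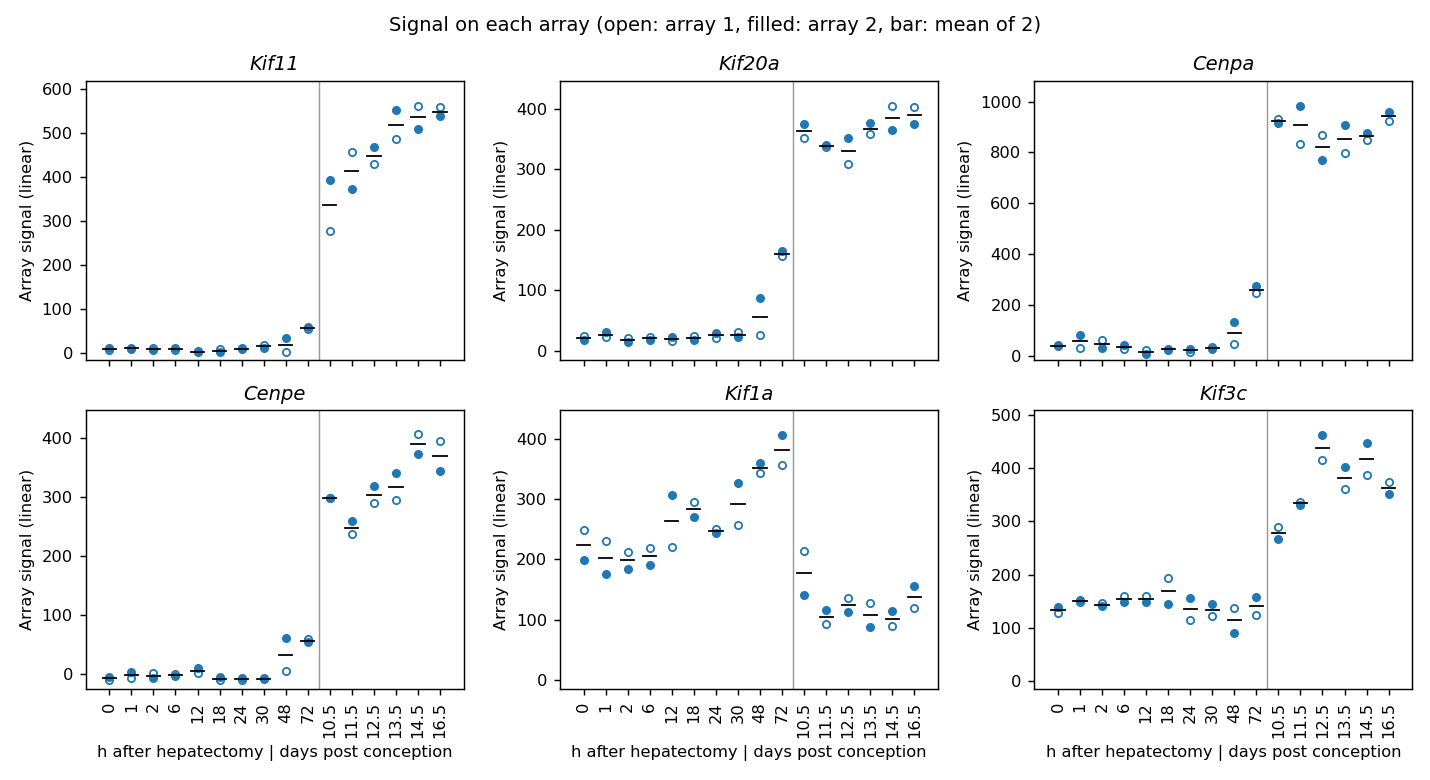
Signal of 6 genes on each of the 32 arrays on a linear axis, by hours after hepatectomy and, right of the line, days post conception; open and filled circles are the first and second array of a group, bars their mean. Kif20a went from 24.96 and 17.9 at time 0 to 156 and 164.8 at 72 h, whereas Kif3c stayed between 90.4 and 194 on the 20 adult arrays and lay between 267 and 461 in the embryo.

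Genes that work with these proteins were listed by role. Of 32 measured genes of the outer kinetochore, the spindle checkpoint and the passenger complex, 15 were raised and 0 lowered at 72 h. Of all genes 2.83% were raised and 0.319% lowered, and the median change of the 32 was 0.85. Among them Bub1, a checkpoint kinase, rose by 2.15 ± 0.23, Oip5, which helps to load Cenpa, by 1.76 ± 0.21, Sgo1, which protects centromeric cohesion, by 2.11 ± 0.28, and Plk1, a mitotic kinase, by 1.04 ± 0.16. Of 15 spindle and midzone partners 9 were raised and 0 lowered (median 1.15). Racgap1, the partner of Kif23 in centralspindlin, rose by 1.39 ± 0.16 and Prc1, the midzone bundler that binds Kif4, by 2.47 ± 0.29. Of 12 light chains and adaptors of transport kinesins 0 were called (median 0.01), as were 0 of the 15 transport kinesins. The partner genes named were picked by smallest p in the embryo against time 0. Their rises at 72 h use the same arrays of time 0.

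The arrays of 48 h differed most by the count of genes higher on the second array. There 12 of the 58 genes lay at least 1 log2 unit above the first, and in the other groups at most 4 did. The 12 are 4 of 11 mitotic kinesins, 7 of 17 inner kinetochore genes and Cenpe. This count leaves out genes lower on the second array, and its share over all genes was not computed. At 10.5 days, which enters the embryonic means, 2 genes lay that far higher on the second array. Others were much lower there, as Cenpf at 516 and 191, Kif28 at 439 and 142 and Kif13b at 1064 and 465. At 48 h Cenpq was at 51.5 and 122, Cenpw at 35.1 and 96.1, Cenpk at 23.9 and 121 and Cenph at 0.441 and 24.5. On the first array these 4 genes were near their levels at time 0, and on the second they were between time 0 and 72 h or, for Cenpk, above 72 h. Of the others, Cenpe at 60.8 and Kif20b at 263 were also above both arrays of 72 h on the second array. Kif14 was at -29.6 and 73.1, with 49.2 and 28.1 at time 0. Transport kinesins ran the other way, with a median of -0.53 for the second array minus the first. The inner kinetochore was not uniform, with 12 of 17 genes higher on the second array. Cenpx, at 253 and 56.8, and Cenpb, at 108 and 24.8, were much lower there, and Cenpm, Cenps and Cenpu were lower too. Against time 0 only Kif21b was called at 48 h (lowered, where 1.5% of all genes were called in either direction). Without the first array of 48 h, which leaves only the second in that group, 16 genes were raised (3.61% of all genes) and 7 lowered (14.4%). Without the second, 1 was raised (1.33%) and 2 lowered (0.445%). The sum of 9 marker genes of cycling cells was 921 and 2187 on the first and second array, 432 to 925 from 0 to 30 h and 3443 to 4144 at 72 h. The hepatocyte sum was 65499 and 35254. The log2 ratio of the 3′ to the 5′ control probe sets of Actb was 1.01 and 2.50, with 0.57 to 1.74 on the 19 other adult arrays. The part of cell cycle stage, cell makeup and RNA quality in the difference was not tested.

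**Figure D3:**
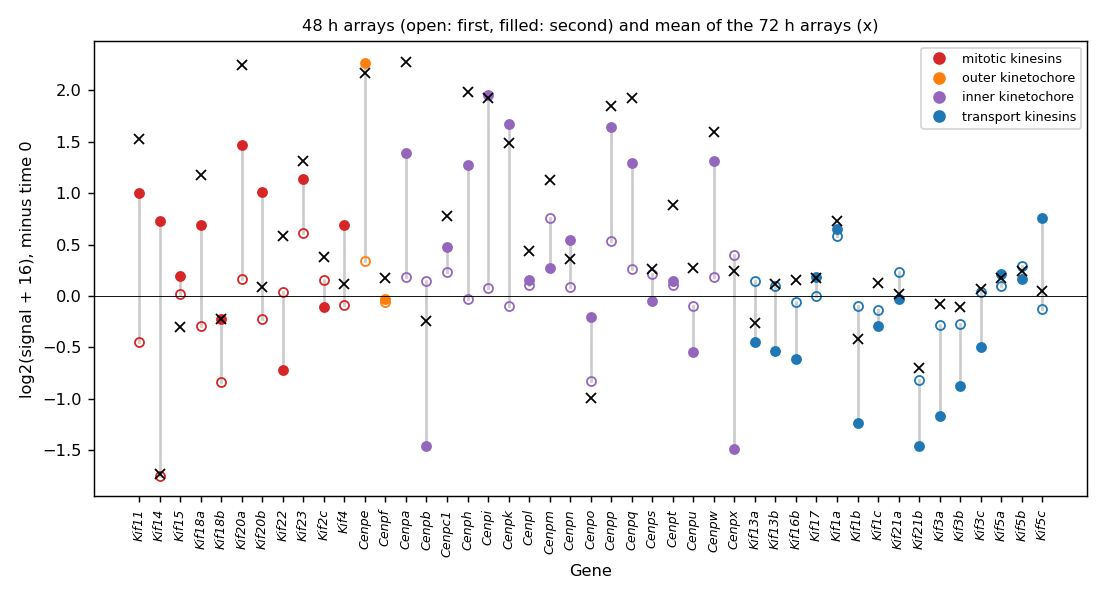
Change from the mean of time 0 in log2(signal + 16) for 45 genes, on the first (open) and second (filled) array of 48 h and as the mean of the 2 arrays of 72 h (cross), coloured by role. For Cenpa, at 48.9 and 134, and Kif20a, at 25.9 and 87.1, the second array lies between the first and 72 h.

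By limma's F test over the 9 times 20 of the 58 genes changed (18.2% of all genes), 11 of them of the inner kinetochore and 4 mitotic kinesins. This count depended on the first array of 48 h. Before 48 h few genes were called. At 1, 2, 6, 24 and 30 h limma called 0 of the 58 (0.484%, 0.572%, 2.12%, 1.25% and 0.352% of all genes), and 5, 5, 5, 10 and 5 had an unadjusted p under 0.05. At 12 h 5 were called, with 8.88% of all genes, and at 18 h 4, with 7.73%, shares close to those of all genes. Kif21b, a transport kinesin that also slows microtubule growth, fell by 0.74 ± 0.20 at 12 h, by 0.86 ± 0.20 at 18 h and by 1.14 ± 0.20 at 48 h. Its signal was 309 and 360 at time 0, 204 and 184 by 12 h, 179 and 174 by 18 h, then 183 and 111 for the arrays of 48 h and 184 and 214 for those of 72 h. The arrays of time 0 lay above those 8. Kif21a, its paralogue, moved up at 12 h, from 208 and 176 to 344 and 312 (0.73 ± 0.19). Kif5b, the conventional kinesin heavy chain of most tissues, rose from 516 and 432 to 682 and 830 (0.65 ± 0.19) and Kif26b, an atypical kinesin of embryonic organs, by 0.53 ± 0.16 at 12 h and 0.58 ± 0.16 at 18 h, from 12.7 and 15.5 to 28.2 and 26.4 and then 29.9 and 28.1. Cenpt fell by 1.01 ± 0.18 at 12 h, to 6.83 and 0.879. At 18 h Cenpc1 rose by 0.61 ± 0.16, to 107 and 92.8, and Cenpj, a builder of centrioles, fell by 0.70 ± 0.18, from 47.5 and 36.2 to 17.8 and 21.0. Each of these calls at 12, 18 and 48 h was lost under at least 1 other setting, and that of Cenpt at 12 h only in the fit of the compared arrays alone.

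In the embryonic liver, taken as the mean of 6 stages, 31 of the 58 genes were raised against time 0 and 11 lowered, where 30.9% of all genes were raised and 24.8% lowered. By role, 15 of 17 inner kinetochore genes were raised and 0 lowered, of 11 mitotic kinesins 8 were raised and 1 lowered, and of 15 transport kinesins 2 were raised and 6 lowered. The median difference was 1.93, 1.33 and 0.03 in these groups and 0.02 over all genes. For 21 genes all 12 embryonic arrays lay above all 20 adult arrays (15.4% of all genes), among them 12 of the inner kinetochore and 6 mitotic kinesins, and for 2, Kif17 and Kif21a, all lay below (7.64%).

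Against 72 h, 8 of 11 mitotic kinesins were higher in the embryo and 1, Kif15, lower. Of 17 inner kinetochore genes 12 were higher and 0 lower, where 28.6% of all genes were higher and 25.5% lower. Kif11 ran from 278 to 562 (median 477) on the embryonic arrays, 4.23 ± 0.22 above time 0 and 2.70 ± 0.22 above 72 h. Kif23 ran from 332 to 591 (median 436), 4.17 ± 0.24 and 2.85 ± 0.24 above, Kif18a from 170 to 464 (median 354), 3.40 ± 0.19 and 2.23 ± 0.19, and Kif20a from 309 to 405 (median 361), 3.34 ± 0.20 and 1.10 ± 0.20. No embryonic array of these 4 overlapped an adult one. Kif22 ran from 1740 to 2101 (median 1964), 1.76 ± 0.24 above time 0, with 335 to 1087 in the adult. Kif15 was the mitotic kinesin lowered, from 59.2 to 179 (median 111) on adult arrays to -0.157 to 63.9 (median 36.1), by 1.59 ± 0.25. Kif14 (-0.74 ± 0.52) and Kif20b (0.53 ± 0.22) were not called.

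In the inner kinetochore, Cenpa ran from 772 to 982 (median 893) in the embryo and was 3.98 ± 0.26 above time 0 and 1.71 ± 0.26 above 72 h. Cenph ran from 209 to 383 (median 330), Cenpi from 144 to 266 (median 227), Cenpk from 290 to 701 (median 612) and Cenpw from 450 to 712 (median 547), with differences from time 0 of 4.31 ± 0.20, 3.85 ± 0.27, 3.70 ± 0.26 and 3.65 ± 0.21. Cenpp, Cenpq, Cenpt and Cenpc1 were 3.46 ± 0.22, 2.84 ± 0.21, 2.62 ± 0.14 and 1.93 ± 0.12 above time 0. For these 9 genes no embryonic array overlapped an adult one. Cenpm was an exception to the order of embryo above 72 h: its mean was 237 in the embryo and 248 at 72 h, a difference of -0.08 ± 0.13 that was not called, and its arrays overlapped. Cenpb (0.42 ± 0.31) and Cenpo (-0.59 ± 0.28) were not called against time 0. Cenpe ran from 237 to 406 (median 309), 4.38 ± 0.26 above time 0 (limma adjusted p 5.11e-12). Cenpj, at 59.9 to 108 in the embryo, was 0.77 ± 0.14 above time 0, and Cenpv, at 121 to 296, 0.68 ± 0.15.

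**Figure D4:**
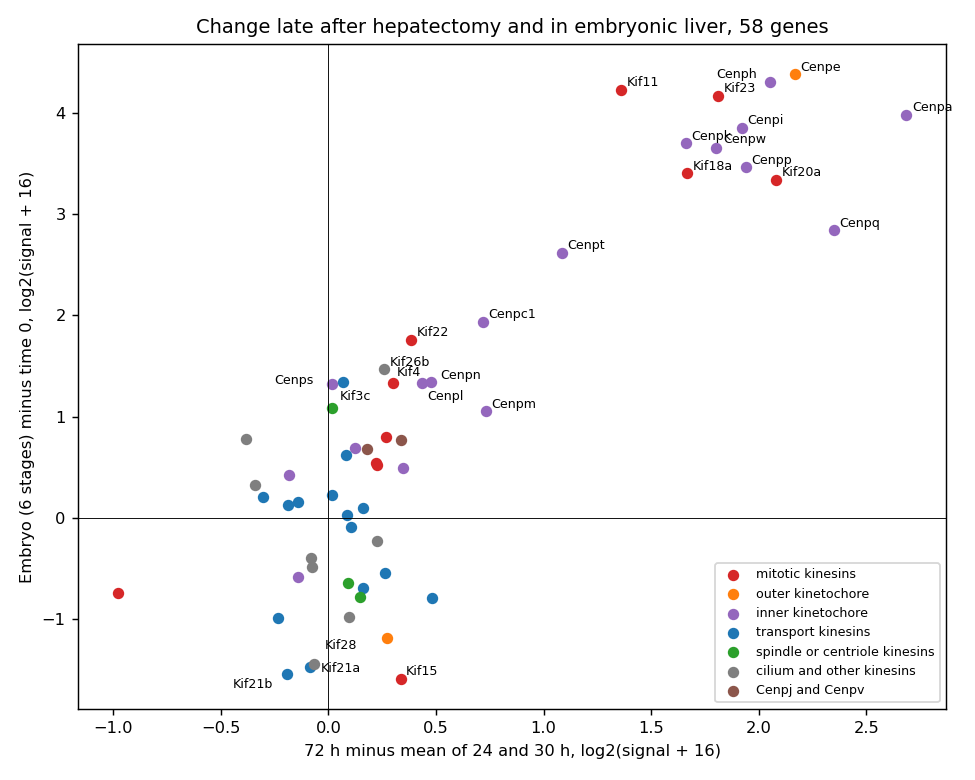
Difference of the embryonic stages from time 0 against that of 72 h from 24 and 30 h, both in log2(signal + 16), for the 58 genes; the axes share no array. Kif23 lies at 1.81 and 4.17 (x and y) and Cenpa at 2.69 and 3.98, Kif22 at 0.38 and 1.76, and Kif21a at -0.09 and -1.47.

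By calls against time 0, which both comparisons share, 15 genes were raised at 72 h and in the embryo (1.89% of all genes), 16 in the embryo but not at 72 h (29.1%), 11 were lowered in the embryo and 16 not called there. The first 15 are those named for 72 h. The 16 are a share close to that of all genes. They include Kif22, Kif4, Kif2c and Kif18b of the mitotic kinesins and Cenpl, Cenpn, Cenps, Cenpu and Cenpx of the inner kinetochore. A gene not called at 72 h may still have changed, since the fit recovered 43.3% of simulated 2-fold changes there. Other probe sets of Kif22 (1451128_s_at) and Kif2c (1449060_at) were raised at 72 h, by 2.33 and 1.39. Against 72 h itself 29 genes were higher in the embryo (28.6% of all genes) and 11 lower (25.5%), or 6 lower without the first array of 72 h. Among partners, 26 of 32 genes of the outer kinetochore, checkpoint and passenger complex were raised in the embryo against time 0 and 3 lowered. Of the spindle and midzone 14 of 15 were raised and 0 lowered, where 30.9% of all genes were raised and 24.8% lowered. The cycling marker sum was 13937 to 24933 there, beside the shift of hepatocyte and erythroid sums given above, and the part of cell makeup was not tested.

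Over the 6 stages, limma's F test called 13 of the 58 genes (21.2% of all genes). In the linear trend, 10 of the 58 genes rose per day from 10.5 to 16.5 days (16.4% of all genes) and 2 fell (11.5%). The count of the F test and the count rising are shares close to those of all genes. With a constant of 64 in place of 16, 19 rose. Kif18a rose from a mean of 191 at 10.5 days to 443 at 16.5 days (0.17 ± 0.04 per day, limma adjusted p 0.000847). Kif4 rose from 261 to 474 (0.17 ± 0.04 per day), Cenpm from 145.5 to 284 (0.15 ± 0.02 per day) and Cenpl from 225 to 403 (0.13 ± 0.02 per day). Cenpa, by contrast, had 923 and 943 at these stages (0.00 ± 0.05 per day). Kif26a and Kif26b fell. Kif26b was at 289 and 202 on the arrays of 10.5 days, from 36.8 to 87.1 on the 8 arrays of 11.5 to 14.5 days and at 28.9 and 22.7 at 16.5 days, the range of the adult (12.7 to 30.8), a fall of 0.39 ± 0.02 per day (limma adjusted p 5.52e-11). Kif26a went from 81.9 and 110 to 11.2 and 8.84, a fall of 0.34 ± 0.04 per day. The sum of 8 mesenchyme genes was 8492 to 10611 on the arrays of 10.5 days and 4159 to 5959 later, and the erythroid sum 2913 to 3153 and 8257 to 27870. The part of these cells was not tested.

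Of the 15 transport kinesins, 2 were raised in the embryo and 6 lowered, where 30.9% and 24.8% of all genes were. Kif3c and Kif21b each have another probe set called in the opposite direction, given with the probe sets. Kif3c, a kinesin-2 subunit, ran from 90.4 to 194 (median 145.5) on adult arrays and from 267 to 461 (median 367) on embryonic ones, without overlap (1.34 ± 0.13, limma adjusted p 2.15e-08). Kif5b was 0.62 ± 0.15 above time 0. Kif21a ran from 169 to 344 (median 208) in the adult and from 46.0 to 77.3 (median 54.6) in the embryo, a difference of -1.47 ± 0.14. Kif21b was lower by 1.54 ± 0.15, at 69.5 to 120 in the embryo and 111 to 360 in the adult. Kif1b, which carries mitochondria and synaptic vesicle precursors, was lower by 0.99 ± 0.20 (adult median 243, embryonic 124). Kif1a, a neuronal vesicle motor, had 249 and 200 at time 0, 355 and 406 at 72 h and 88.1 to 214 (median 117) in the embryo. At 72 h both arrays were above all of 0 to 30 h (at most 327), but the change of 0.73 ± 0.22 was not called (limma adjusted p 0.0772), and the embryo was lower than time 0 by 0.79 ± 0.17. Kif17, a kinesin-2 of dendrites and cilia, was lower by 0.69 ± 0.12. Kif13a, Kif13b, Kif16b, Kif1c, Kif3b, Kif5a and Kif5c were not called, with differences from -0.09 (Kif1c) to 0.22 (Kif5c), though Kif5c rose over the stages, from a mean of 95.6 to 187 (0.16 ± 0.03 per day). The sum of 12 nervous system genes was 715 to 966 from 0 to 30 h and 1132 to 1429 in the embryo. Of 12 light chains and adaptors, 5 were raised in the embryo and 3 lowered, beside the same shares of all genes. Trak2, an adaptor for mitochondria, was 2.73 ± 0.17 higher and Klc4, a light chain, lower by 1.22 ± 0.22.

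Of the kinesins of cilium or other roles, Kif28 ran from 160 to 339 (median 261) in the adult and from 30.6 to 439 (median 111) in the embryo, lower by 1.44 ± 0.38, with the highest value on the first array of 10.5 days. Kif26b and Kif26a were higher, by 1.47 ± 0.13 and 0.78 ± 0.22, carried by the early stages. Kif7, a regulator of Hedgehog signalling at the tip of the cilium, ran from 247 to 472 (median 329) and from 222 to 590 (median 285), and Kif6 from 40.3 to 216 (median 127) and from -20.8 to 109 (median 53.9), neither called (-0.48 ± 0.21 and -0.98 ± 0.45). Kif12 was lower by 0.40 ± 0.16, and Kif27 (0.32 ± 0.43) and Kif9 (-0.23 ± 0.18) were not called. Kif2a, a depolymerase of spindle poles and growing neurites, ran from 116 to 200 (median 146) in the adult and from 229 to 453 (median 312) in the embryo, without overlap (1.08 ± 0.14). Kif24, which trims centriolar microtubules, ran from 69.6 to 352 and from 60.3 to 178 and was not called (-0.64 ± 0.33). Kif2b, a depolymerase related to Kif2a, was at 13.4 to 43.1 in the adult and 2.33 to 26.4 in the embryo, a fall of 0.78 ± 0.23.

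For 35 of the 58 genes the array has several probe sets, and these did not always run together. Tested on their own, a choice made after the data were seen, 22 of 138 probe sets were raised at 72 h and 0 lowered (15.9% raised, against 1.96% of all 34945, of which 0.255% were lowered), and 19 of 58 genes had at least 1 raised (3.09% of all genes), among them 7 of 11 mitotic kinesins. This adds Cenpf, Kif20b, Kif22 and Kif2c. A gene with more probe sets has more chances here. Cenpf's second probe set, 1427161_at, was at 5.83 and 14.4 at time 0 and 97.8 and 93.6 at 72 h (2.12 ± 0.46), and 4.07 ± 0.35 higher in the embryo, whereas the probe set of highest mean, 1458447_at, was lower there by 1.19 ± 0.30. Kif22's 1451128_s_at was at -1.56 and -0.217 at time 0 and at 67.6 and 61.3 at 72 h (2.33 ± 0.32). Kif2c's 1449060_at went from 28.6 and 23.9 to 94.1 and 95.5 (1.39 ± 0.23). None of 56 probe sets of transport kinesins was called at 72 h.

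**Figure D5:**
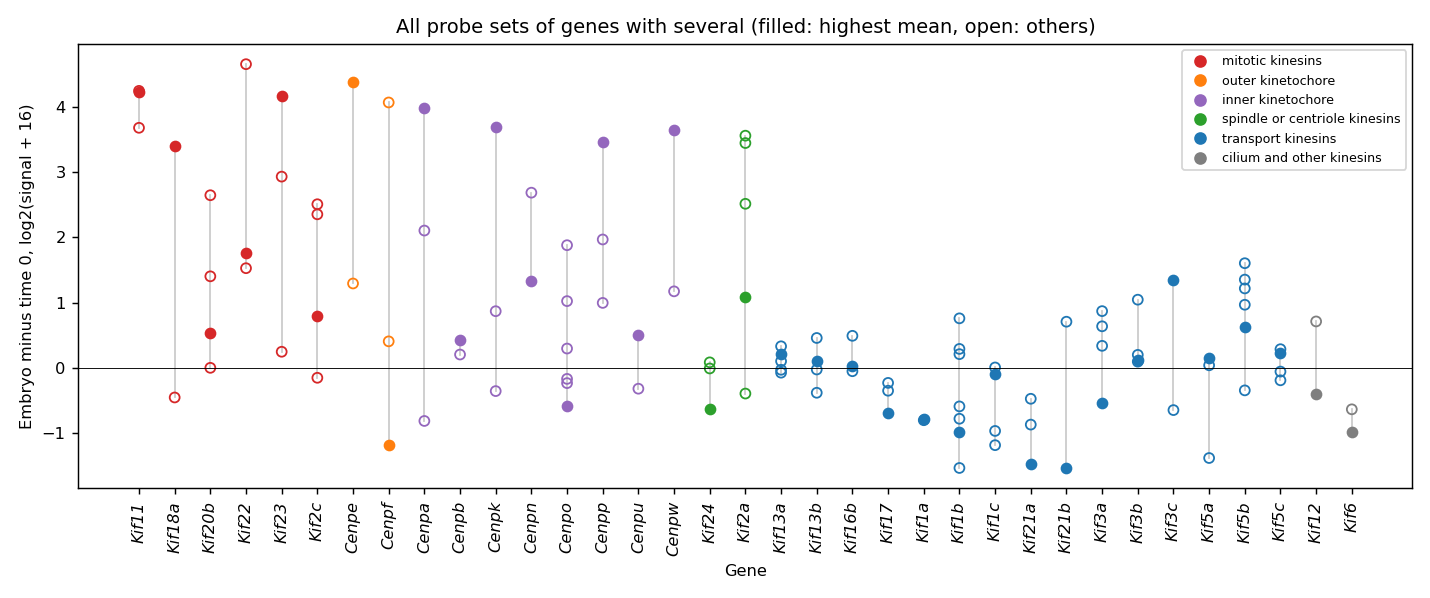
Embryo minus time 0 in log2(signal + 16) for every probe set of the genes with several, filled for the one of highest mean and open for the others, coloured by role. For Cenpf the values are 4.07, 0.40 and -1.19, for Kif11 all lie above 3.

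In the embryo 63 of the 138 probe sets were raised (45.7%, against 30.3% of all) and 26 lowered (21.8% of all). In 8 of the 35 genes with several (22.9%, against 11.9% of the 9010 such genes) 1 probe set was raised and another lowered. They are Cenpa, Cenpf, Cenpk, Kif12, Kif18a, Kif21b, Kif3a and Kif3c. Kif3c's 1448946_at was lower by 0.65 ± 0.14 where the other was higher by 1.34 ± 0.13. Kif3a, its partner in kinesin-2, was lower by 0.54 ± 0.21 on 1420375_at and higher by 0.64 ± 0.16 on 1449841_at and 0.87 ± 0.23 on 1455652_at. Kif21b's 1435772_at was higher by 0.71 ± 0.20. For Cenpa, the lowered 1441864_x_at (-0.82 ± 0.22) stood beside 2 raised. Cenpk's 1437068_at was lower by 0.36 and Kif18a's 1457895_at by 0.46, where their probe sets of highest mean were higher. At 72 h Kif18a's 1457895_at differed from time 0 by -0.64 and was not called. The direction of all these 8 genes in the embryo therefore holds for the probe set named and not for all of the gene. Kif5b was raised on 5 of 6 probe sets by 0.62 to 1.60, and for Kif2a the 1450052_at and 1450053_at gave 3.56 ± 0.23 and 3.45 ± 0.20, more than the 1.08 of the probe set of highest mean. Cenpo, not called on its own highest, was raised on 1418541_at (1.88 ± 0.18) and 1418542_s_at (1.02 ± 0.13).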

How the data were processed

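The authors deposited 1 intensity per probe set and array, on a linear scale. How it was computed and normalized is not given in the sources used here. Negative values were replaced by 0, 16 was added and log2 taken, with no further normalization. Of 45101 probe sets, 34945 were paired with 1 gene (18193 genes), and the probe set of highest mean stood for a gene. With limma 3.58.1 in R 4.3.3, a model of group means was fitted over the 32 arrays (16 residual and 4.72 prior degrees of freedom) with a mean-variance trend. Benjamini-Hochberg adjustment ran over the genes of each contrast. On simulated data of 18193 genes the fit recovered 43.3% of 2-fold changes at 72 h against time 0 and 87.9% of 4-fold ones. For the embryo against time 0 it recovered 76.1% and 95.5%. In each simulation 200 genes were changed. In the data 30.9% of all genes were raised in the embryo and 24.8% lowered, so the recovery for that comparison may differ.

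The genes, lists and tests were chosen with earlier results of these data known. Values of each array are given for up to 5 genes of a role with the largest difference between embryo and time 0. They are also given for up to 8 called at an adult time. Those of Cenpb, Cenpm, Cenpo, Cenpu, Cenpx, Kif14, Kif20b, Kif5b and of single probe sets were added after their values were seen. The rest are given by means or changes. Partner genes named are those of smallest p in the embryo. Array numbers were not taken to pair the samples. Of 120 pairs of groups, 17 had a correlation over 0.1 of their differences between arrays. The correlations ran from -0.357 to 0.555 (median -0.006), and a pairing within some groups only was not tested. Promoters come from RefSeq, on GRCm38.p6, and were read with Python 3.11.15. Alternatives were another added constant, quantile normalization, a filter on low values, other choices of probe set, array weights, single arrays left out, only the compared arrays and a replicate block.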

Additional observations from a re-analysis of the deposited data

How the results depend on the processing

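The counts of genes raised at 72 h, and of those raised or lowered in the embryo against time 0, stayed within 1.5 times of those given under the alternatives run, except the fit of the compared arrays alone, which raised 5 genes at 72 h. Genes lower in the embryo than at 72 h went from 11 to 6 without the first array of 72 h. Single arrays left out gave 10 to 13 genes raised at 72 h and 0 to 1 lowered, 13 to 15 raised against 24 and 30 h, 27 to 31 raised and 9 to 13 lowered in the embryo against time 0, and 27 to 31 and 6 to 12 against 72 h. They gave 0 to 1 called at 1 h, 1 to 6 at 12 h, 0 to 2 at 18 h and 0 to 23 at 48 h, 17 to 32 over the 9 times, 10 to 18 over the 6 stages, and 8 to 14 rising and 2 to 4 falling per day. At 6 h 1 gene was called with a constant of 4, the filter on low values, the mean of probe sets, array weights, or without the second array of 48 h and the first of 10.5 days. Leaving out these 2 arrays, chosen after seeing the data, gave 10 called at 12 h, 1 at 24 h, 3 at 48 h, 2 lowered at 72 h and 16 rising per day. Array weights gave 1 called at 12 h, 0 at 48 h, 1 lowered at 72 h and 17 rising per day. The compared arrays alone gave 0 called at 12, 18 and 48 h and 19 rising per day. A constant of 64 gave 1 lowered at 72 h, 19 rising per day and 21 over the 6 stages, and a constant of 4 gave 2 at 48 h. Quantile normalization gave 3 at 48 h, 1 lowered at 72 h and 8 over the 6 stages. The filter gave 1 lowered at 72 h. The mean of probe sets gave 0 at 48 h and 4 falling per day, and the probe set of largest variance, chosen on these values, 6 falling per day. The gene lowered at 72 h was Kif21b, and also Kif14 without the 2 arrays named.

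Differences turned sign where another probe set was used. The first value is for the mean of probe sets and the second for the probe set of largest variance. Against time 0, Cenpf was 1.10 and 4.07, Cenpo 0.37 and 1.88, Kif12 0.15 and 0.71, Kif3a 0.32 and 0.87, and Kif5a -0.40 and -1.39. Against 72 h, Cenpf was 0.24 and 1.95, and Kif3a 0.44 and 0.88. With the largest variance, Kif12 was 0.69 and Kif13a -0.011 against 72 h, and Kif5c -0.17 per day. Without probe sets ending in _x_at or _s_at, Kif12 was 0.71 and 0.69 against time 0 and 72 h, Kif5a -1.39 against time 0 and Kif17 0.18 per day.

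The array number as a replicate block gave 15 raised at 72 h and 30 raised and 12 lowered in the embryo against time 0; Cenpu lost its call there and Kif7 gained one. With 2 arrays a group, precision is limited, and signals near 0 have no reliable fold.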
